A study of Homo sapiens with 6 samples.

Results

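NKX2-1 and 8 transcription factors of Müllerian and related urogenital or endodermal lineages, PAX8, SOX17, WT1, EMX2, MEIS1, FOXA2, MECOM and LHX1, were followed by their gene symbols through the RNA sequencing of OVCAR8 cells, a human high-grade serous ovarian carcinoma line. These are 9 of the 38637 genes in the deposited table. Wild-type OVCAR8 cells were treated for 72 h with DMSO, the solvent control, or with 2 nM pladienolide B, a small molecule that inhibits SF3B1, the splicing factor that helps U2 snRNP hold the branch point of an intron. Each group had 3 samples, and all 6 came from the same single line, with polyA RNA sequenced. The labels do not say that the replicates were separate cultures, so p-values measure only the spread between these samples, which may be technical. The comparison asks what SF3B1 inhibition did to gene expression in these cells. The 9 genes were chosen by lineage with the differences between these DMSO and pladienolide B samples known, and so their own values are given as a description, with no test.

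The Müllerian ducts give rise to the fallopian tube, uterus and upper vagina, and serous ovarian carcinoma keeps many of the transcription factors of the tubal epithelium. PAX8, a paired-box factor, marks the secretory cells of the tube and is needed for growth of many ovarian carcinoma lines. SOX17, WT1, EMX2, MECOM, LHX1 and MEIS1 act in the duct, in the coelomic lining from which it folds in, or in the neighbouring kidney field. NKX2-1, also called TTF-1, is a homeodomain factor of lung, thyroid and ventral forebrain that works with PAX8 in thyroid cells and with FOXA2 in lung cells.

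The samples held between 22621338 and 26130882 reads on genes, recovered from the deposited library-size-adjusted values (adjusted reads below). The chi-square per degree of freedom between samples of a group, which counting alone would hold near 1, ran from 2 to 7.29, and the lowest correlation of their log2 values was 0.992. Across all 16178 genes with enough reads to test, 7695 had an adjusted p below 0.05 by limma, 3618 of them higher and 4077 lower in pladienolide B, and the median log2 change was -0.004. Epithelial keratins were abundant, with 41458 ± 2125.3 adjusted reads of KRT8 in DMSO (SD, n = 3), whereas CDH1, which encodes E-cadherin, had only 23.8 ± 2.02 and KRT19 16.4 ± 1.14. Markers of leukocytes, endothelium, fibroblasts and erythroid cells, which should be absent from an epithelial line, summed to 8260.4 to 8598.3 adjusted reads in DMSO and 7588.5 to 8320.8 in pladienolide B. Of these 20 markers, 11 were tested, 1 was higher and 3 were lower. COL1A1, a collagen gene that carcinoma cells can also express, held most of that sum, with 6799.9 ± 125.7 in DMSO and 5900.8 ± 372.7 in pladienolide B. Its log2 change was -0.21 (SE 0.05, adjusted p = 0.0014). CD68, a lysosomal protein gene used as a macrophage marker, had a log2 change of 0.41 (SE 0.06, adjusted p = 2.4e-05). ITGAM was lower by a log2 change of -0.99 (SE 0.33, adjusted p = 0.021) and PDGFRB by -0.34 (SE 0.12, adjusted p = 0.026). The ITGAM call did not hold without DMSO 2, DMSO 3, pladienolide B 1 or pladienolide B 2 (adjusted p up to 0.095), nor with no filter on low values. That of PDGFRB did not hold without DMSO 1, DMSO 3, pladienolide B 2 or pladienolide B 3 (up to 0.13), nor without limma's trend of variance on expression. The defining markers CD3E, PTPRC, DCN, HBB and HBA1 had 0, 3, 3, 3 and 2 reads over all 6 samples.

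NKX2-1 lies at chr14:36516397-36520232 on the minus strand of hg38, spans 3.84 kb and has 3 exons in its canonical transcript, and PAX8 lies at chr2:113215997-113278921 on the minus strand, spans 62.9 kb and has 12 exons. The sequences around their starts are shown because these were the only members with high levels and because their levels parted after treatment. They are RefSeq promoter windows on GRCh38.p14, from 250 bases before to 50 bases after an annotated start, given 5′ to 3′ on the gene's own strand. Capitals mark CAAGTG, the core that NKX2-class homeodomains bind, and CACTCAAG, letters of an NKX2-1 consensus, both searched on both strands. The first letters of CAAGTG can overlap the last of CACTCAAG, but here the matches lie apart.
NKX2-1, upstream start, chr14:36520183-36520482: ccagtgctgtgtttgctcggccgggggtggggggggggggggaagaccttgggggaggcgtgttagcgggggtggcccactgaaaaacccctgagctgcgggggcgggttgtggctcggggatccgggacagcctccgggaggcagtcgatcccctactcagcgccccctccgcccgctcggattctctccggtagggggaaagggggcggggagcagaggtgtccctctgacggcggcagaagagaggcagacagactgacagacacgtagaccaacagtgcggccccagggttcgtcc
NKX2-1, downstream start, chr14:36519507-36519806: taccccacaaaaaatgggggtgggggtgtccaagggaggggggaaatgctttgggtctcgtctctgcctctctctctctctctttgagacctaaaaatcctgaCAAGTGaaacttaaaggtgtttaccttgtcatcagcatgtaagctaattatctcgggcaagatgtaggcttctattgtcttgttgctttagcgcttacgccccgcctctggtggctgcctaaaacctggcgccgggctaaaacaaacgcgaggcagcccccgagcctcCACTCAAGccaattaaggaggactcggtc
PAX8, chr2:113278872-113279171: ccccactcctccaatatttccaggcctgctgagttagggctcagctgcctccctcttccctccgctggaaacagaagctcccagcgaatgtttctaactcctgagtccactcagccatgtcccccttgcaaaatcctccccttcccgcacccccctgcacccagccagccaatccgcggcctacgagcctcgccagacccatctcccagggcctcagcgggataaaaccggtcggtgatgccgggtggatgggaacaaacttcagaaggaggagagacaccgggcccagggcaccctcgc

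The downstream window of NKX2-1 holds CAAGTG starting 147 bases before its start and CACTCAAG starting 21 bases after it. Of 34943 distinct windows of the same length, 11.5% hold CAAGTG and 0.724% hold CACTCAAG. The upstream window, with a GC content of 69.0%, and the PAX8 window hold neither. Of the 6 members whose windows were searched, NKX2-1 and MECOM hold CAAGTG and NKX2-1 alone holds CACTCAAG. FOXA2 and LHX1 have no entry in the window table. A match describes letters only, and the data hold no measurement of binding.

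Of the 9 factors, NKX2-1 and PAX8 accounted for 97.5% of the summed adjusted reads in DMSO, while the Müllerian regulators SOX17, EMX2 and MECOM had at most 12 reads in any sample and WT1 had 14 to 32. NKX2-1 had 34.5% of its DMSO level with pladienolide B, while PAX8 kept overlapping values in both groups. The plot of adjusted reads by sample shows this split between abundant and scarce members. In bulk RNA, fewer cells expressing a gene and less RNA per cell cannot be told apart.

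**Figure D1:**
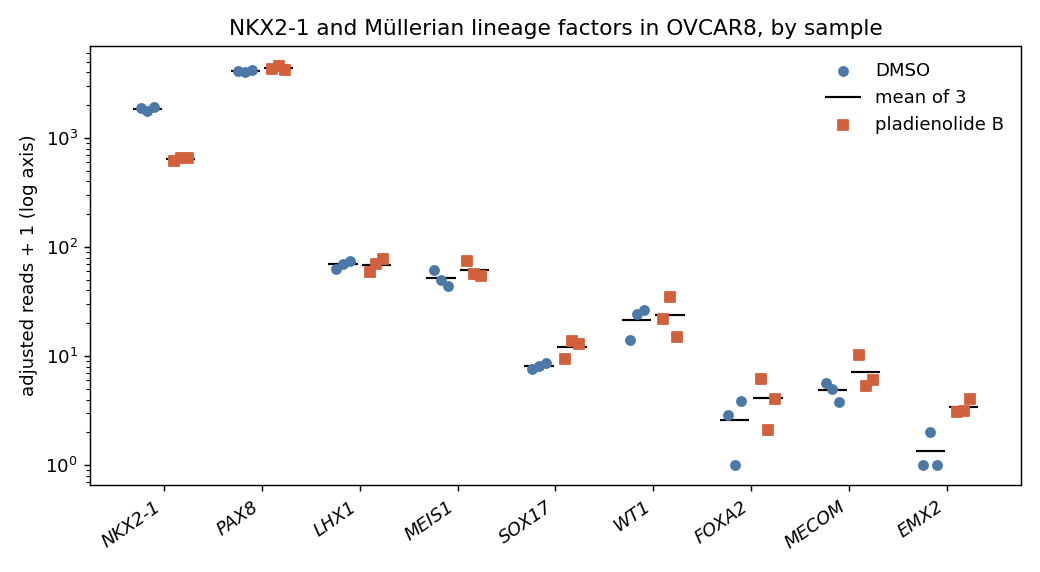
Adjusted reads plus 1 of each of the 9 factors on a log axis, ordered by level per length in DMSO, with a point per sample (circles, DMSO; squares, pladienolide B) and a bar at the mean of 3. The 3 NKX2-1 squares sit between 616.1 and 651.4 adjusted reads, under all DMSO circles, while the PAX8 groups overlap and the other 7 genes stay at or under 76.2.

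NKX2-1 had 1868.8, 1778.2 and 1913.3 adjusted reads in DMSO 1 to 3 and 616.1, 651.0 and 651.4 in pladienolide B 1 to 3. All 3 treated samples were low, all 3 controls were high and the groups did not overlap. The means were 1853.4 ± 68.9 and 639.5 ± 20.2 (SD, n = 3), a level 2.9 times higher in DMSO. The log2 change was -1.53 (SE 0.06), the 50th lowest of the 16178 tested genes, and between -1.56 and -1.51 when each sample was left out in turn.

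PAX8 had 4152.7, 4010.9 and 4161.8 adjusted reads in DMSO 1 to 3 and 4280.5, 4580.9 and 4160.9 in pladienolide B 1 to 3. Treated samples 1 and 2 were above every control, treated sample 3 lay among them, and the groups overlapped. Its means were 4108.5 ± 84.6 and 4340.8 ± 216.4, and its log2 change was 0.08 (SE 0.04).

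Because NKX2-1 has 3165 exonic bases and PAX8 7371, they were compared per length, as RPKM, the reads on a gene divided by its exonic length and by the reads on all genes. In DMSO the NKX2-1 level was 23.6 ± 1.19 RPKM and the PAX8 level 22.5 ± 0.776 RPKM, at the 92.9th and 92.4th percentiles of 26988 genes, and their ranges of 22.3 to 24.6 and 21.6 to 23.0 overlapped. The ratio of PAX8 to NKX2-1 in RPKM was 0.954, 0.969 and 0.934 in DMSO 1 to 3 and 2.98, 3.02 and 2.74 in pladienolide B 1 to 3. The thyroid lineage partners were thus at like levels per length in control cells and at unlike levels in every treated sample.

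LHX1, a LIM-homeodomain factor required for growth of the duct and kidney tubule, came next in the order of levels per length. LHX1 had 62.0, 69.5 and 73.8 adjusted reads in DMSO 1 to 3 and 58.5, 69.4 and 76.2 in pladienolide B 1 to 3. The groups overlapped throughout, with a log2 change of -0.01 (SE 0.18). In DMSO its level was 0.562 ± 0.0481 RPKM, so that PAX8 was 40.0 times higher per length and the ranges were far apart.

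MEIS1, a TALE homeodomain cofactor of HOX proteins, had 60.5, 49.4 and 43.3 adjusted reads in DMSO 1 to 3 and 73.8, 55.7 and 53.1 in pladienolide B 1 to 3. The highest value was in treated sample 1 and the lowest in control sample 3, and the groups overlapped. The log2 change was 0.25 (SE 0.21). In DMSO the MEIS1 level was 0.188 ± 0.0321 RPKM, below LHX1 with no overlap.

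WT1, a zinc-finger factor of the coelomic lining and a stain used for serous carcinoma, had 13.0, 23.2 and 25.7 adjusted reads in DMSO 1 to 3 and 20.9, 33.8 and 14.0 in pladienolide B 1 to 3. The spread within each group was wider than the difference between their means, and the log2 change was 0.12 (SE 0.36), between -0.20 and 0.41 when a sample was left out. In DMSO, WT1 at 0.102 ± 0.0323 RPKM and SOX17 at 0.122 ± 0.00866 RPKM overlapped in range.

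SOX17, an HMG-box partner of PAX8 in tubal and ovarian carcinoma cells, was too low for the filter on low values and was not tested. It had 7, 7 and 8 reads in DMSO 1 to 3 and 8, 12 and 12 in pladienolide B 1 to 3. The corresponding adjusted reads were 6.57, 7.06 and 7.57 against 8.39, 12.8 and 12.0. All treated samples were above all controls on the adjusted scale, although 2 samples tied at 8 reads, and with no filter the log2 change was 0.56 (SE 0.46).

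MECOM, a zinc-finger factor whose locus is amplified in many serous carcinomas, had 5, 4 and 3 reads in DMSO 1 to 3 and 9, 4 and 5 in pladienolide B 1 to 3. FOXA2, a forkhead factor of foregut and uterine glands, had 2, 0 and 3 reads against 5, 1 and 3. EMX2, a homeobox factor of the urogenital ridge, had 0, 1 and 0 reads against 2, 2 and 3. Both FOXA2 and MECOM overlapped between the groups, while the adjusted values of EMX2 did not. No fold and no test are given for EMX2 or FOXA2, whose group means were at or under 3 reads per library. In DMSO the levels of FOXA2 and MECOM, 0.0235 and 0.0168 RPKM, overlapped in range, and EMX2 was lowest at 0.00409 RPKM.

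Of the 9 factors, 5 passed the filter on low values, and 1 of these, NKX2-1, lay past the threshold set for all genes, in the lower direction, where 25.2% of all tested genes were called lower and 47.6% were called in either direction. A call with a log2 change of -1 or lower was made for 1.98% of tested genes. The groups did not overlap for 3 of the 9, NKX2-1, SOX17 and EMX2, and for 1 of the 5 tested, beside 55.3% of all tested genes, 26.4% in the higher and 28.8% in the lower direction. Since the contrast chose the members, nothing is read from these counts.

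The genes whose pattern over the 6 samples was most like that of NKX2-1, by the root mean square difference of log2(value + 1) after centring, were WDR11 at 0.035, ABCB6 at 0.044, PIF1 at 0.074 and USP24 and PPP1R3G at 0.092 each. WDR11, a protein of trafficking and ciliary signalling, had 791.6, 808.4 and 814.8 adjusted reads in DMSO 1 to 3 and 265.9, 275.4 and 281.6 in pladienolide B 1 to 3. Every treated sample was under every control, as for NKX2-1, which follows from choosing the gene by its likeness over these same samples. The other 4 encode a porphyrin-linked ABC transporter, a DNA helicase, a deubiquitinase and a glycogen-targeting phosphatase subunit, and none of the 5 is a transcription factor of the lineages considered here.

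Next to NKX2-1 the overlapping genes did not move together. NKX2-1-AS1, a noncoding gene on the opposite strand that overlaps NKX2-1 by 955 bases, fell, whereas SFTA3, on the same strand and overlapping it by 3160 bases, was higher. Whether reads were assigned by strand is not given in the sources used here, so reads from the stretch shared with NKX2-1-AS1 cannot be told apart. SFTA3 lies on the strand of NKX2-1, so strand alone would not separate reads from the stretch that these genes share.

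NKX2-1-AS1 (chr14:36519278-36523016, plus strand) had 239, 231 and 230 reads in DMSO 1 to 3 and 73, 90 and 96 in pladienolide B 1 to 3. All treated samples were low and the groups did not overlap. Its adjusted reads were 225.0 ± 7.79 in DMSO and 89.5 ± 11.4 in pladienolide B, a log2 change of -1.33 (SE 0.13, adjusted p = 3.7e-07). For each 100 reads on NKX2-1 there were 12.0, 13.1 and 11.4 on NKX2-1-AS1 in DMSO 1 to 3 and 12.4, 14.8 and 14.8 in pladienolide B 1 to 3, so that the ratio of the pair stayed within a narrow band with ranges that overlapped.

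SFTA3 (chr14:36473288-36519556, minus strand), named for a surfactant-associated protein of lung, starts at the downstream NKX2-1 window printed above. It had 50, 49 and 38 reads in DMSO 1 to 3 and 59, 67 and 68 in pladienolide B 1 to 3, with every treated sample above every control. Its adjusted reads were 44.1 ± 7.33 and 67.0 ± 5.0, a log2 change of 0.61 (SE 0.20, adjusted p = 0.019). The call did not hold without DMSO 3, pladienolide B 2 or pladienolide B 3, with an adjusted p of up to 0.086. LOC105370453, a noncoding gene 2871 bases away, had 23 reads over all samples and was not tested.

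A window of 500 kb on either side of NKX2-1, chosen after the values were seen, held 15 other genes in whole or part, of which 8 were tested, 3 were higher and 3 lower. MBIP, which encodes a MAP3K12-binding subunit of a histone acetyltransferase complex, had 3373.1 ± 43.0 adjusted reads in DMSO and 2457.5 ± 105.6 in pladienolide B, a log2 change of -0.46 (SE 0.05, adjusted p = 3.8e-07). NKX2-8, a paralog 62.4 kb away, had a log2 change of -0.44 (SE 0.13, adjusted p = 0.01), which did not hold without pladienolide B 3 (adjusted p = 0.065) or without limma's trend of variance on expression. PTCSC3, a noncoding gene linked to thyroid cancer susceptibility, was higher, with 117.8 adjusted reads in DMSO and 192.2 in pladienolide B, a log2 change of 0.72 (SE 0.15, adjusted p = 0.00071). PAX9, a foregut and tooth-bud paired-box gene 137.3 kb away, had a log2 change of 0.25 (SE 0.08, adjusted p = 0.014). Whether the calls of MBIP, PTCSC3 and PAX9 held without each sample was not followed gene by gene. Both directions occurred among tested genes around NKX2-1, as among all tested genes, of which 22.4% were called higher and 25.2% lower. None of the others in the window had a change as large as that of NKX2-1 and its antisense gene.

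**Figure D2:**
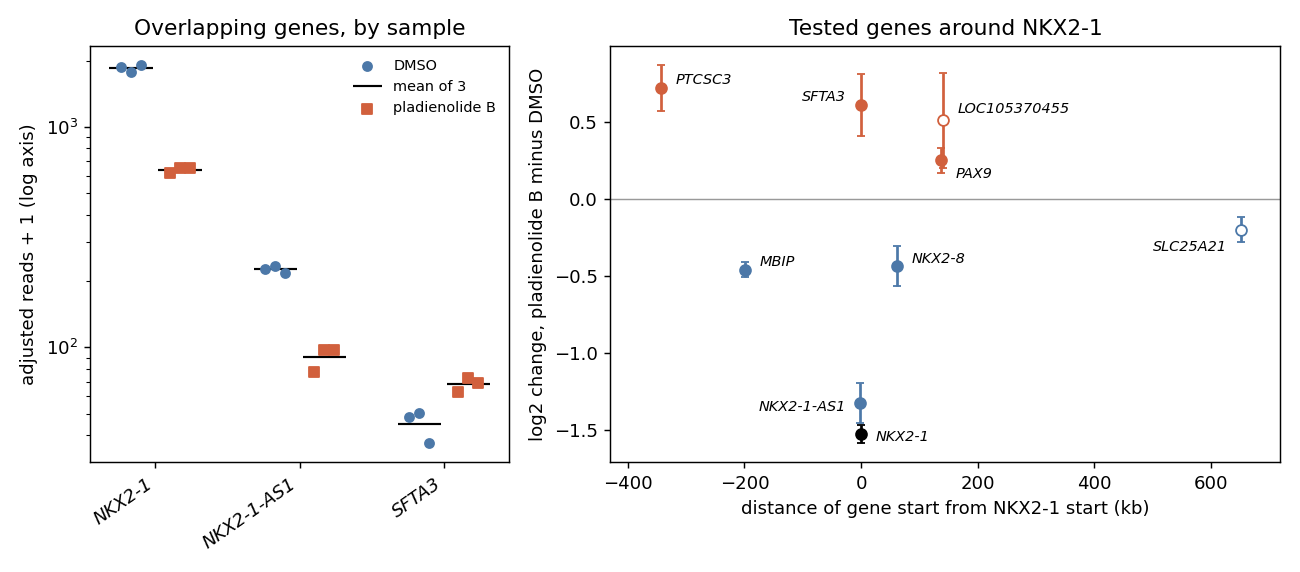
Left, adjusted reads plus 1 of NKX2-1 and its overlapping genes on a log axis, with a point per sample and a bar at the mean of 3. Right, log2 change of pladienolide B minus DMSO with its SE for each tested gene with any part within 500 kb of NKX2-1, against the distance between gene starts, with filled points at an adjusted p below 0.05. NKX2-1 at -1.53 and NKX2-1-AS1 at -1.33 lie under all others, and SFTA3, PTCSC3 and PAX9 lie above 0.

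Counting all 9 members, 18 genes of the table overlapped one or had an end within 10 kb of one. Of these 18 neighbours 7 were tested, 3 were higher and 2 were lower, while 5 had 0 reads in every sample. Over all tested genes, 22.4% were called higher and 25.2% lower. PAX8-AS1, which overlaps PAX8 by 31497 bases on the opposite strand and lies at chr2:113235527-113267023, had a log2 change of 0.09 (SE 0.13, adjusted p = 0.59). PSD4, on the other side of PAX8, had a log2 change of -0.04 (SE 0.10, adjusted p = 0.8). Neither neighbour of PAX8 passed the test.

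LHX1-DT, a noncoding gene that starts 813 bases from LHX1 and runs the opposite way, had 55, 33 and 45 reads in DMSO 1 to 3 and 14, 17 and 27 in pladienolide B 1 to 3. All treated samples were under all controls, unlike LHX1 itself, whose groups overlapped. Its adjusted reads were 42.6 ± 9.37 in DMSO, the treated mean was 46.9% of that, and the samples gave a log2 change of -1.08 (SE 0.29, adjusted p = 0.0052). AATF, an RNA polymerase II-binding and ribosome biogenesis factor gene on the other side of LHX1, rose from 1664.0 ± 97.4 to 2075.3 ± 79.0 adjusted reads, a log2 change of 0.32 (SE 0.05, adjusted p = 0.0001). LOC100129098, 4701 bases from SOX17, had 33.4 adjusted reads in DMSO and 53.3 in pladienolide B, a log2 change of 0.65 (SE 0.22, adjusted p = 0.023). That call did not hold without DMSO 3, pladienolide B 2 or pladienolide B 3 (adjusted p up to 0.11), nor with no filter on low values.

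The remaining neighbours had few reads or none. WT1-AS, EMX2OS and MEIS1-AS3, antisense or bidirectional partners of their namesakes, had 37, 12 and 20 reads over all 6 samples. LOC105375841 and LINC01798 had 2 and 1 reads. LINC00261 and LNCNEF beside FOXA2, MECOM-AS1 and LOC105374206 within MECOM and MEIS1-AS2 within MEIS1 had 0 reads, so at this depth no neighbour of FOXA2 or MECOM was detected.

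Genes known to be driven by NKX2-1 or to act with it in lung or thyroid were mostly too low to test in OVCAR8 cells. Of 32 such genes, 12 were tested, of which 5 were higher and 1 was lower, with a median log2 change of 0.14 beside -0.004 over all tested genes. That is 41.7% higher and 8.33% lower, where all tested genes had 22.4% higher and 25.2% lower. With no filter on low values, 30 were tested, 5 were higher and 2 were lower. The surfactant genes SFTPA1, SFTPA2, SFTPB, SFTPC and SFTPD had 10, 11, 4, 7 and 19 reads over all samples. None of them passed the filter, and SFTA2 and SCGB3A2 had 0 reads. SFTPD had 7, 4 and 7 reads in DMSO 1 to 3 and 1, 0 and 0 in pladienolide B 1 to 3. Its groups did not overlap, while those of the other SFTP genes did.

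ABCA3, the lipid transporter of lung lamellar bodies, was the abundant gene of this list and, with the filter, the only one called lower. It had 4843.8, 4737.6 and 4597.1 adjusted reads in DMSO 1 to 3 and 3407.3, 3766.4 and 3514.5 in pladienolide B 1 to 3, with no overlap. The log2 change was -0.41 (SE 0.05, adjusted p = 1.5e-06). GATA6, a zinc-finger partner of NKX2-1 in lung, rose from 138.2 ± 22.5 to 245.1 ± 11.2 adjusted reads, a log2 change of 0.83 (SE 0.13, adjusted p = 3.7e-05). FOXE1, a thyroid forkhead factor, rose from 63.4 ± 8.24 to 109.1 ± 16.3, a log2 change of 0.77 (SE 0.17, adjusted p = 0.0013).

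TG, which encodes thyroglobulin and is a thyroid target of both NKX2-1 and PAX8, had 9.43, 6.06 and 10.4 adjusted reads in DMSO 1 to 3 and 24.0, 19.4 and 31.1 in pladienolide B 1 to 3. All treated samples were above all controls, at a low level, and the log2 change was 1.43 (SE 0.36, adjusted p = 0.0035). ROR1, a receptor that NKX2-1 induces in lung adenocarcinoma, rose from 12.9 ± 1.47 to 29.7 ± 6.04 adjusted reads, a log2 change of 1.14 (SE 0.30, adjusted p = 0.0054). FOXA1, the pioneer factor that shares sites with FOXA2, had a log2 change of 0.47 (SE 0.18, adjusted p = 0.037), which did not hold without DMSO 1, pladienolide B 1 or pladienolide B 3 (adjusted p up to 0.21), with no filter on low values or without the variance trend. Genes named as NKX2-1 targets or partners thus moved in both directions while NKX2-1 was lower.

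Signals, receptors and factors of Müllerian duct development were mostly below the threshold for a call. Of 40 genes, 30 were tested, 6 were higher and 3 lower, with a median log2 change of 0.12. Over all tested genes, 47.6% were called. CTNNB1, which encodes beta-catenin, was the most abundant, with 12605 ± 572.1 adjusted reads in DMSO and 13901 ± 321.0 in pladienolide B. Its log2 change was 0.14 (SE 0.04, adjusted p = 0.01), and whether that call held without each sample was not followed.

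AMH, the hormone that makes the duct regress, had 193.1, 117.1 and 245.0 adjusted reads in DMSO 1 to 3 and 103.0, 91.8 and 78.2 in pladienolide B 1 to 3. All treated samples were lower, although the controls were widely spread, and the log2 change was -0.96 (SE 0.20, adjusted p = 0.00094). Its receptor gene AMHR2 had 12 reads over all samples. TFCP2L1, a grainyhead-family factor of tubule epithelium, had a log2 change of 0.47 (SE 0.12, adjusted p = 0.0046), and VANGL2, a planar polarity protein gene, of 0.26 (SE 0.08, adjusted p = 0.013).

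RARA, a retinoic acid receptor gene, had a log2 change of 0.31 (SE 0.09, adjusted p = 0.0085) that did not hold without pladienolide B 3 (adjusted p = 0.06). RARB had a change of 0.72 (SE 0.25, adjusted p = 0.024), not held without DMSO 1, pladienolide B 1 or pladienolide B 2 (up to 0.068), with no filter or with DESeq2. WNT5A, a noncanonical Wnt ligand gene, had a change of 0.30 (SE 0.11, adjusted p = 0.03), not held without DMSO 1, DMSO 2, pladienolide B 1 or pladienolide B 3 (up to 0.14). PGR, the progesterone receptor gene, and HOXA13, a factor of the lowest part of the tract, had log2 changes of -0.24 (SE 0.08, adjusted p = 0.021) and -0.43 (SE 0.15, adjusted p = 0.03). The PGR call did not hold without DMSO 1, pladienolide B 1 (up to 0.12) or the variance trend. The HOXA13 call did not hold without DMSO 1, DMSO 2, pladienolide B 1 or pladienolide B 2 (up to 0.11), with no filter or with DESeq2. The count of 9 called genes became 4 without DMSO 1 and 5 without pladienolide B 1.

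Products of the tubal secretory epithelium and serous carcinoma markers moved both ways. Of 38 genes, 26 were tested, 6 were higher and 8 lower, with a median log2 change of -0.06. The share called was 53.8%, beside 47.6% of all tested genes. The abundant surface markers MSLN and CD24 fell. MSLN, which encodes mesothelin, dropped from 4994.3 ± 150.4 to 3683.1 ± 147.6 adjusted reads, a log2 change of -0.44 (SE 0.04, adjusted p = 4.5e-07). CD24, a small sialoglycoprotein gene, had a log2 change of -0.47 (SE 0.05, adjusted p = 5.3e-07), MUC1, a membrane mucin gene, of -0.69 (SE 0.09, adjusted p = 1.1e-05), and KRT7 of -0.64 (SE 0.08, adjusted p = 7.7e-06). SPON1, an extracellular matrix protein gene, had 125.4, 70.6 and 52.3 adjusted reads in DMSO and 38.5, 40.4 and 30.1 in pladienolide B, a log2 change of -1.08 (SE 0.26, adjusted p = 0.0028).

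The 6 rises were in the abundant keratin genes KRT8 and KRT18 and in 4 genes with few reads. CLDN4, a tight junction claudin gene, rose from 24.7 ± 8.39 to 54.6 ± 5.01 adjusted reads, a log2 change of 1.16 (SE 0.26, adjusted p = 0.0013). FOLR1, the folate receptor alpha gene, rose from 82.0 ± 6.61 to 149.6 ± 25.7, a change of 0.85 (SE 0.15, adjusted p = 0.00024). OVGP1, the oviductal glycoprotein gene, rose from 49.4 ± 17.7 to 79.5 ± 2.28, a change of 0.73 (SE 0.22, adjusted p = 0.011), not held without DMSO 1 (adjusted p = 0.059) or without the variance trend. CDH1 had a change of 0.67 (SE 0.24, adjusted p = 0.032), not held without DMSO 1 or any 1 treated sample (up to 0.10), with no filter or with DESeq2. KRT18, a highly abundant keratin gene, had a change of 0.29 (SE 0.06, adjusted p = 0.00096), not held without the variance trend. PAX8 itself overlapped between groups. The list had 23.1% of its tested genes higher and 30.8% lower, where all tested genes had 22.4% higher and 25.2% lower. Its mixed directions are therefore not read as a trait of these products.

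Genes of the ciliated cell, the other epithelial cell type of the tube, differed widely in level. Of 28 genes, 17 were tested, 1 was higher and 4 lower, with a median log2 change of -0.06. That is 29.4% called, beside 47.6% of all tested genes. FOXJ1, the master regulator of motile cilia, had 44 reads over all samples. RFX2, a ciliogenic transcription factor gene, had 860.6 ± 73.6 adjusted reads in DMSO. DNAH5, an axonemal dynein gene, fell from 248.4 ± 16.6 to 131.2 ± 11.6 adjusted reads, a log2 change of -0.92 (SE 0.12, adjusted p = 5.8e-06). CFAP43, a ciliary protein gene, had a change of -0.87 (SE 0.26, adjusted p = 0.0096), not held without DMSO 1 (adjusted p = 0.053), and HYDIN, a central pair protein gene, of -0.54 (SE 0.18, adjusted p = 0.021), not held without DMSO 2 or pladienolide B 1 (up to 0.10) or with DESeq2. TP73, a p53-family gene needed for multiciliated cells, had a change of 0.33 (SE 0.08, adjusted p = 0.004). With DESeq2 the count of 5 called genes became 3.

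Genes of the coelomic lining and partners or reported targets of WT1 moved both ways, with rises in 12 and falls in 5 of the 24 tested of 32 genes. That is 70.8% called, beside 47.6% of all tested genes, a difference that was not tested. The list had a median log2 change of 0.22, and the count of 17 became 11 without pladienolide B 1. PODXL, a podocyte sialomucin gene and reported WT1 target, had 5890.3, 5877.7 and 6070.2 adjusted reads in DMSO 1 to 3 and 10857, 10019 and 11603 in pladienolide B 1 to 3. The groups were far apart, with a log2 change of 0.86 (SE 0.05, adjusted p = 4.5e-10). AREG, the amphiregulin gene and a reported WT1 target, rose from 152.6 ± 20.1 to 247.6 ± 7.73, a change of 0.70 (SE 0.12, adjusted p = 0.00011).

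SPRY1, a feedback inhibitor of receptor tyrosine kinase signalling that WT1 is reported to activate, dropped from 299.0 ± 24.0 to 87.0 ± 7.44 adjusted reads, a log2 change of -1.77 (SE 0.12, adjusted p = 5.4e-09). EGR1, an immediate early zinc-finger gene whose product binds sites like those of WT1, dropped from 1922.6 ± 284.4 to 506.9 ± 90.0, a change of -1.93 (SE 0.11, adjusted p = 5.6e-10). PDGFA, a growth factor gene, had a change of -0.63 (SE 0.08, adjusted p = 3.1e-06), and NR2F2, a nuclear receptor gene of urogenital mesenchyme, of -0.17 (SE 0.04, adjusted p = 0.004). UPK3B, a mesothelial uroplakin gene, had a change of 1.19 (SE 0.38, adjusted p = 0.015), not held without DMSO 1 (adjusted p = 0.069). STAR, a steroidogenic gene, and NR2F1 had changes of 0.95 (SE 0.37, adjusted p = 0.044) and 0.68 (SE 0.27, adjusted p = 0.047). The STAR call did not hold without any sample but DMSO 1 (up to 0.13), with the replicate number as a block, with no filter or with DESeq2. The NR2F1 call did not hold without any sample but pladienolide B 3 (up to 0.18), with no filter, with DESeq2 or without the variance trend. WT1 reached at most 32 reads in a sample, so these values accompany a WT1 level whose groups overlapped.

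**Figure D3:**
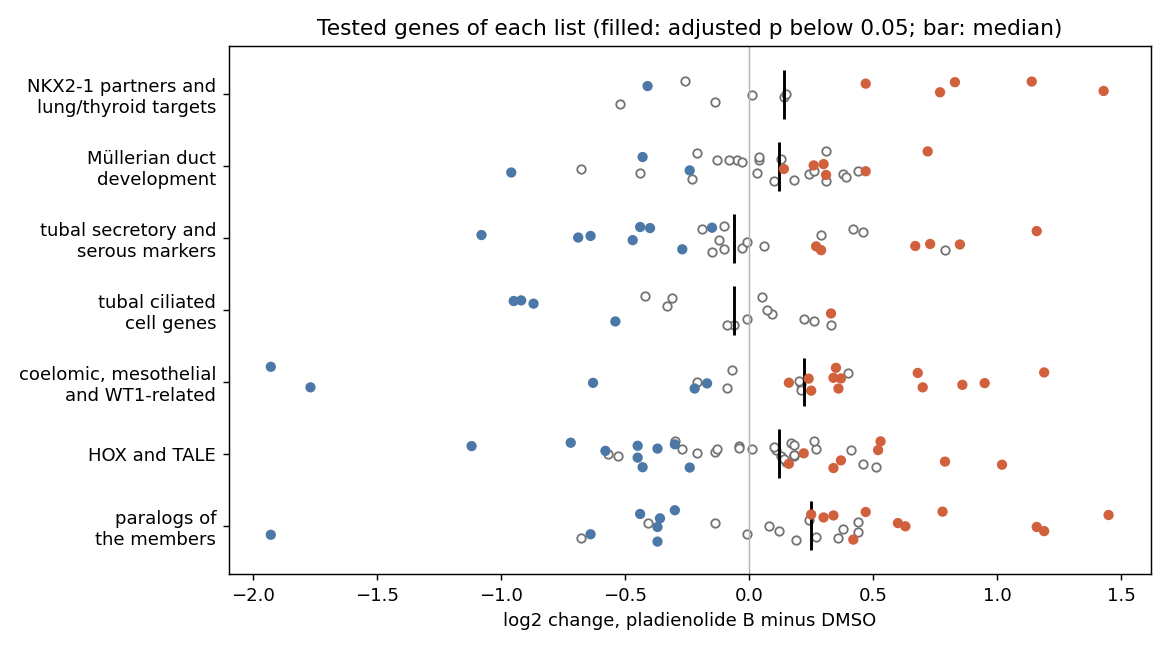
Log2 change of pladienolide B minus DMSO for each tested gene of 7 lists, 1 point a gene with random vertical spread, filled where the adjusted p was below 0.05, and a bar at each list's median. The medians lie between -0.06 and 0.25, and the lowest points are EGR1, which is on 2 of the lists, and SPRY1.

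The HOX genes pattern the Müllerian duct along its length, and MEIS and PBX proteins, of the TALE class, bind DNA with them. Of 55 HOX and TALE genes, 42 were tested, 8 were higher and 9 lower, with a median log2 change of 0.12. That is 40.5% called, beside 47.6% of all tested genes, and the count of 17 became 11 without pladienolide B 1. The list had 19.0% higher and 21.4% lower, where all tested genes had 22.4% higher and 25.2% lower. Of 39 HOX genes, 33 were tested, 8 were higher and 4 lower, with a median of 0.15. Of the 9 TALE genes tested, MEIS1 apart, 5 were lower and 0 higher, with a median of -0.24. Whether HOX and TALE genes differ from each other or from all tested genes was not tested.

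The HOXB cluster held 4 of the rises and 1 fall among 8 tested genes. HOXB5 had 47.1, 42.3 and 43.5 adjusted reads in DMSO 1 to 3 and 90.7, 91.8 and 90.2 in pladienolide B 1 to 3, a log2 change of 1.02 (SE 0.17, adjusted p = 0.00012). HOXB6 rose from 225.1 ± 9.07 to 390.4 ± 18.9, a change of 0.79 (SE 0.09, adjusted p = 1.7e-06), and HOXB4 had a change of 0.34 (SE 0.10, adjusted p = 0.0069). HOXB9, in the same cluster, dropped from 1277.3, 962.8 and 1273.8 in DMSO 1 to 3 to 536.7, 554.8 and 509.1 in pladienolide B 1 to 3, a change of -1.12 (SE 0.09, adjusted p = 3.1e-08). Neighbouring HOXB genes thus lay on both sides of 0.

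In the other clusters, HOXD4 had a log2 change of 0.37 (SE 0.09, adjusted p = 0.0028). HOXC10 had a change of -0.45 (SE 0.07, adjusted p = 9.2e-05). HOXD11 had a change of -0.58 (SE 0.21, adjusted p = 0.029), not held without DMSO 1, pladienolide B 1 or pladienolide B 2 (up to 0.12), with no filter or with DESeq2. Among the TALE cofactors, PBX4 had a change of -0.72 (SE 0.10, adjusted p = 2.8e-05), PBX3 of -0.45 (SE 0.06, adjusted p = 1.1e-05), MEIS2 of -0.37 (SE 0.07, adjusted p = 0.00059), MEIS3 of -0.30 (SE 0.10, adjusted p = 0.02) and PBX2 of -0.24 (SE 0.04, adjusted p = 0.00022). Whether the calls of MEIS3 and PBX2 held without each sample was not followed gene by gene. MEIS1 itself, at 0.25 (SE 0.21), had the opposite sign to MEIS2 and MEIS3, and whether these changes differ was not tested.

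**Figure D4:**
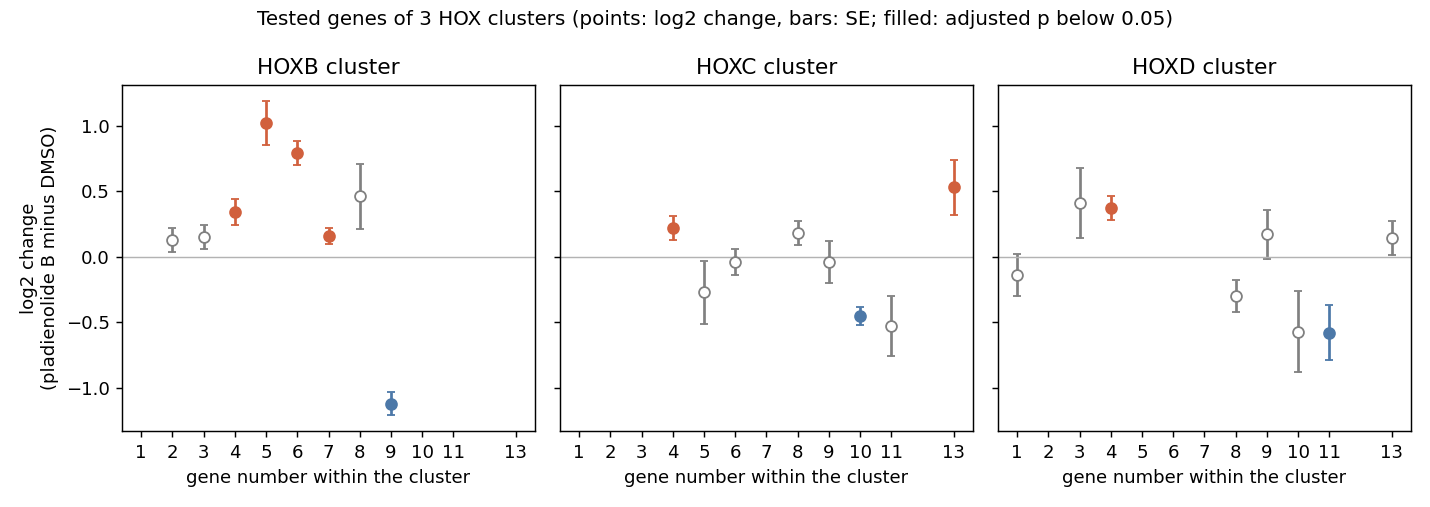
Log2 change of pladienolide B minus DMSO with its SE for the tested genes of the HOXB, HOXC and HOXD clusters against gene number, filled where the adjusted p was below 0.05. HOXB5 at 1.02 and HOXB9 at -1.12 are the highest and lowest points.

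A list of paralogs of the members showed which listed gene of each family was most read in these cells. Of 45 paralogs, 31 were tested, 11 were higher and 7 lower, with a median log2 change of 0.25. That is 58.1% called, beside 47.6% of all tested genes, a difference that was not tested. In the NK2 family NKX2-5, a cardiac homeobox gene, followed NKX2-1 with 307.2 ± 22.8 adjusted reads in DMSO and 410.0 ± 11.9 in pladienolide B, a log2 change of 0.42 (SE 0.09, adjusted p = 0.00068). Its direction was opposite to that of NKX2-1 and of NKX2-8. In the PAX family PAX9 was the most read after PAX8, and PAX6, an eye and endocrine factor gene, had a change of -0.37 (SE 0.12, adjusted p = 0.017), not held without DMSO 3, pladienolide B 1 or pladienolide B 3 (up to 0.13) or without the variance trend.

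Among the 8 SOX paralogs listed, SOX12, a group C factor gene, was the most read. SOX12 fell from 1911.0 ± 90.1 to 1227.8 ± 36.3 adjusted reads, a log2 change of -0.64 (SE 0.05, adjusted p = 4.7e-08). SOX7, which belongs with SOX17 to group F, had 83.2, 63.5 and 65.1 adjusted reads in DMSO 1 to 3 and 150.2, 176.8 and 147.3 in pladienolide B 1 to 3, a change of 1.16 (SE 0.15, adjusted p = 1e-05). SOX9, a chondrocyte and duct progenitor factor gene, rose from 100.4 ± 14.0 to 172.7 ± 7.91, a change of 0.78 (SE 0.14, adjusted p = 0.00016). Both had many more reads than SOX17.

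For the other families, MEIS2 with MEIS1, FOXA1 with FOXA2 and EGR1 with WT1 were the most read paralogs and are described above. LHX2, a LIM-homeodomain gene, had 492.0 ± 48.7 adjusted reads in DMSO and 604.4 ± 19.2 in pladienolide B, a log2 change of 0.30 (SE 0.08, adjusted p = 0.0047). PRDM16, the paralog of MECOM, had a change of 0.27 (SE 0.13, adjusted p = 0.11), and EMX1 had 51 reads over all samples and was not tested. LHX3 had a change of 1.19 (SE 0.41, adjusted p = 0.023), not held without DMSO 2, DMSO 3, pladienolide B 1 or pladienolide B 2 (up to 0.091), with no filter, with DESeq2 or without the variance trend. Among the other EGR genes, EGR4 had a change of 1.45 (SE 0.39, adjusted p = 0.0058) and EGR2 of 0.63 (SE 0.16, adjusted p = 0.0033), opposite in sign to EGR1.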

How the data were processed

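PolyA RNA of OVCAR8 cells was sequenced in 6 samples. The methods state that the authors aligned reads to hg38 with hisat2, while the submitters' processing notes list hg19, HISAT2, HTSeq 0.12.4 and DESeq2. Of 35926 symbols in the RefSeq GRCh38.p14 table, 99.8% had a deposited position that overlaps the one given there, so hg38 was used. The signal values the authors deposited per sample are adjusted for library size, and matched the quantile adjustment of edgeR. Undoing it gave whole reads, within 0.02, for 100% of the 96432 values that were 10 or larger and for 100% of the smaller ones. The deposited log2 fold changes, p-values and q-values of the authors' own comparison were not used.

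Values were tested as log2(value + 1) with limma 3.58.1 (trend, two-sided, Benjamini-Hochberg adjustment over 16178 genes, threshold 0.05), after filterByExpr of edgeR 4.0.16 with a minimum of 10 in 3 samples and 15 in total. The pseudocount of 1 understates changes of genes with few reads. RPKM used GENCODE v44 exon lengths, which may differ from the gene models counted. Scripts were tested on simulated data. Alternatives were a pseudocount of 0.1, other filters on low values, the replicate number as a block, each sample left out, limma without the variance trend, and, on the recovered reads, DESeq2 1.42.0 and the quasi-likelihood test of edgeR scaled by TMM, RLE or upper quartiles. Depth was 22621338 to 26130882 reads.

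The members, lists and tests were chosen with earlier results of these data known. Genes named were the members, genes overlapping them or within 10 kb, up to 5 rises and 5 falls per list with the largest log2 change among called genes whose groups did not overlap and whose mean was at least 10, the most read paralog per family, and the 5 genes most like NKX2-1. Others, KRT8, KRT19, AMHR2, FOXJ1, RFX2, CTNNB1, MEIS3, PBX2, the surfactant genes and those in the 500 kb window, were chosen after their values were seen. A gene and a sequence that met these rules are not reported here.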

Additional observations from a re-analysis of the deposited data

How the results depend on the processing

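The count of called genes was 7695 and moved between 6381 without the variance trend and 7836 without DMSO 2. It was 7738 with edgeR and TMM, of which 7616 were shared, 6985 with DESeq2, 7755 with RLE and 7746 with upper-quartile factors, 7687 with a pseudocount of 0.1, 7402 with no filter or a mean of at least 0.1, and 7513 with at least 10 reads in every sample. The median change of all genes stayed at or under 0.021 on the log2 scale. When any single sample was dropped, the number of called genes was 6568 to 7836 in all, 5 to 6 for NKX2-1 partners and targets, 4 to 10 for duct development, 11 to 14 for secretory and serous markers, 4 to 5 for ciliated cell genes, 11 to 14 for coelomic and WT1-related genes, 11 to 16 for HOX and TALE genes, 14 to 19 for paralogs and 2 to 4 for cell type markers. The ciliated list had 3 called genes with DESeq2, against 5. The cause of these differences was not tested.

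The replicate numbers gave no sign of pairing. The correlations of deviations between samples with the same number were -0.0183, -0.0175 and 0.00261, and with the replicate block 7349 genes were called. The log2 change of NKX2-1 kept its sign in every alternative run. For 67 named genes outside the members, 968 of 1067 values under alternatives stayed on their side of the threshold. Another 99 lost the call, and 0 were classed as reversed. The sign could still change in genes that were not called. When a sample was left out, the log2 change of PAX8-AS1 ran from -0.07 to 0.2 and that of PSD4 from -0.11 to 0.01. For SOX17, EMX2, FOXA2 and MECOM the depth limits what could be seen.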
